A study of Mus musculus with 14 samples.

Results

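BCOR and Otx2 were mapped in adult mouse retina by CUT&RUN, in which an antibody directs a nuclease to a protein on chromatin and the released DNA is sequenced. The comparison rests on 4 of the 14 samples of the series, 2 libraries for BCOR and 2 for Otx2. All came from wild-type adult retina of the CD1 strain. The labels give no exact adult age and do not say how many mice were pooled in a library. A region of a factor was defined as a stretch of overlapping peaks on chromosomes 1 to 19 that held a peak of each of its 2 libraries. This gave 1035 BCOR regions and 6591 Otx2 regions, out of 49773 regions when the regions of both factors were summed over all stages. BCOR and Otx2 libraries from CD1 retina at embryonic day 14 (E14, 1 library each) and on the day of birth (P0, 2 libraries each) were used to follow the adult regions back in time. The 4 RNA libraries of a Bcor knockdown were not used. The series text writes Otx2/Crx for the second antibody target, whereas the sample labels name Otx2. The sources used here do not state whether signal of the related protein CRX is included.

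BCOR is a corepressor without a sequence-specific DNA-binding domain of its own. It reaches chromatin through partner proteins such as the repressor BCL6 and as a subunit of a variant Polycomb complex that ubiquitinates histone H2A. Otx2 is a homeodomain transcription factor that binds DNA directly, is required for photoreceptor fate and is maintained in photoreceptors and bipolar cells of the adult retina. Whole retina was profiled, so the cell type in which a given peak lay cannot be told apart.

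The BCOR libraries had 1339 and 2445 peaks on chromosomes 1 to 19, and the Otx2 libraries had 7183 and 14590. Sequencing depth is unknown, so these numbers do not measure how much of the genome each protein occupied. The lists also differed in stringency. The largest q-value was 0.248 in both BCOR lists and 0.0466 and 0.0489 in the Otx2 lists, and 51 (3.81%) and 172 (7.03%) of the BCOR peaks had a q-value above 0.05. With 2 libraries per factor, a two-sided exact permutation test over libraries cannot give a p below 0.3333, so values are given per library without a test. Regions of one library pair are not replicates of each other, and the 95% Wilson intervals given for shares cover counting error only.

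Most adult BCOR regions lay at Otx2, and few adult Otx2 regions lay at BCOR. Of the 1035 BCOR regions, 734 held an Otx2 region, 70.9% (68.1 to 73.6%), and 301 did not. Among the 6591 Otx2 regions, 728 held a BCOR region, 11.0% (10.3 to 11.8%), and 5863 did not. The pairing was nearly one to one, as 730 BCOR regions met a single Otx2 region and 716 Otx2 regions met a single BCOR region.

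The BCOR regions counted as alone were mostly not free of Otx2 signal. A peak of Otx2 replicate 2 without one of replicate 1 was present in 218 of the 301 (72.4%), and a peak of replicate 1 without one of replicate 2 in 3. No Otx2 peak in either library was found in 80, which is 7.73% of all BCOR regions. The Otx2 replicate 2 peaks in those 218 regions had a median fold over background of 8.07 at the summit, against 26.5 in the BCOR regions with Otx2. Ranked within their own list on a scale of 0 to 100, these peaks stood at a median of 44.5 and 87.5. The 218 were thus near the middle of that list, whose median fold was 8.88. By definition they lacked a peak of replicate 1 and the regions with Otx2 had one, so the comparison is not independent of the class rule. On the Otx2 side, 4984 of the 5863 Otx2 alone regions (85.0%) had no BCOR peak in either library. A BCOR peak of replicate 2 alone was found in 707 of the 5863, a peak of replicate 1 alone in 166, and 6 had peaks of both libraries that did not overlap each other. The BCOR lists searched here are much shorter than the Otx2 lists, so the shares of the 2 sides cannot be set against each other.

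**Figure D1:**
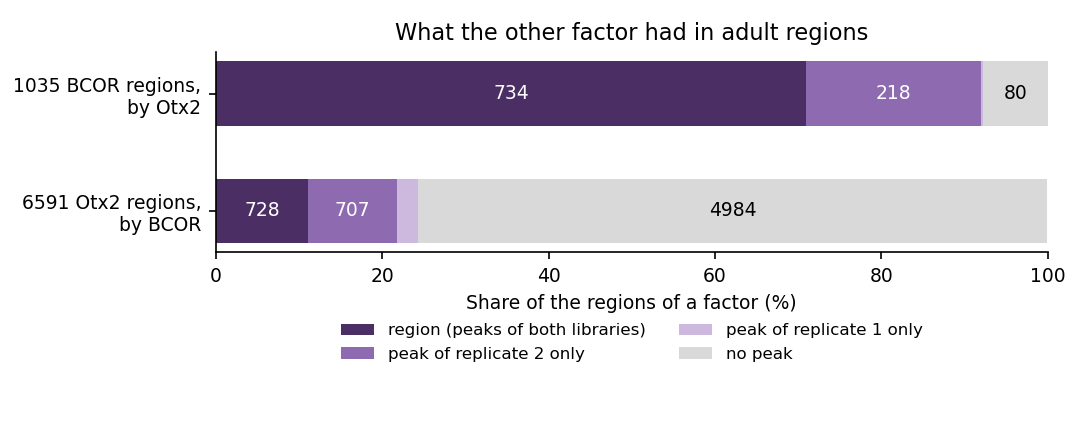
Share of adult BCOR regions (top) and adult Otx2 regions (bottom), in percent, by what the other factor had there, with counts of regions in the bars. Of the BCOR regions, 734 held an Otx2 region and 80 no Otx2 peak. Of the Otx2 regions, 4984 had no BCOR peak. The 6 Otx2 regions with separate BCOR peaks of both libraries are not drawn.

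Both shares moved with the length of the lists. With every list cut to the 1339 peaks of smallest q-value, 262 of 837 BCOR regions held an Otx2 region (31.3%, 28.3 to 34.5%) and 254 of 1047 Otx2 regions held a BCOR region (24.3%, 21.8 to 26.9%). With the BCOR lists left whole and the Otx2 lists cut to 500, 2500 and 5000 peaks, the share of BCOR regions with Otx2 was 16.5%, 42.2% and 57.2%. The share of Otx2 regions with BCOR went the other way, at 43.0%, 21.8% and 15.1%. BCOR lay at 162 of the 377 Otx2 regions made from the 500 most significant peaks of each Otx2 list. The single libraries moved the shares as well. Against a peak of Otx2 replicate 1 the share of BCOR regions was 71.2%, and against a peak of Otx2 replicate 2 it was 92.0%.

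The regions that ranked highest in all 4 libraries show the joint signal at its strongest. At chr2:31221266-31221593 (mm9), the BCOR fold was 13.7 and 27.6 in replicates 1 and 2 and the Otx2 fold was 175 and 271. At chr1:89699885-89700497 the BCOR fold was 14.1 and 14.9 and the Otx2 fold was 148 and 393, the highest in the Otx2 replicate 2 list. Both places ranked at 97.8 of 100 or higher in each of the 4 lists, and both lacked a BCOR region at E14 and at P0. At chr7:51560040-51560832 the BCOR fold was 12.9 and 19.9 and the Otx2 fold was 35.5 and 85.7, and peaks of all 10 CUT&RUN libraries of the series overlapped it. Likewise, chr4:115634923-115636060 had a BCOR fold of 17.2 and 13.9, an Otx2 fold of 52.4 and 121 and peaks in all 10 libraries. By earlier BCOR regions the 8 highest regions split evenly, though only 2 of the 8 had a BCOR region at P0. No BCOR region was found at either earlier stage in 4 of them, and BCOR was present at E14 or P0 in the other 4, while an Otx2 region was found at P0 in all 8. The other regions of this set are chr19:9003654-9004283, chr19:53881144-53881680, chr3:8964073-8964580 and chr11:53244349-53244769. Over all 734 BCOR regions with Otx2, 13.4% had no BCOR region at either earlier stage and 94.3% had an Otx2 region at P0.

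High BCOR signal without any Otx2 peak was also found. In BCOR replicate 2 the 6 highest such regions had a fold of 11.6 to 19.8. The 8 regions with both factors had 12.6 to 27.6, but they were ranked over the Otx2 libraries too. They are thus not the tallest BCOR regions with Otx2. Over all 734 BCOR regions with Otx2, the highest BCOR fold was 31.9 and 49.0 in replicates 1 and 2. Over the 80 without any Otx2 peak it was 12.6 and 19.8. A maximum also depends on the number of regions. At chr12:4914183-4914700 the BCOR fold was 12.0 and 19.4, and chr19:59017602-59018215 ranked at 97.8 and 98.9 of 100 in the BCOR lists. These 2 places had held Otx2 regions at P0 and at E14. At chr14:103498535-103499235 the fold was 11.2 and 19.8, and at chr15:58913160-58914210 it was 11.1 and 18.9, with no Otx2 region at any stage. All 6 of the highest BCOR alone regions, which also include chr1:162722906-162723466 and chr17:13897034-13897514, had a BCOR region at P0 and at E14. The 6 highest Otx2 regions without a BCOR peak were 1047 to 1969 bases wide, against 481 to 1051 bases for those 6 BCOR regions. The Otx2 fold was 61.2 and 177 at chr3:32029872-32031415, and 59.7 and 130 at chr11:109158141-109159885. The chr3 stretch spanned 1544 bases and had no earlier region of either factor. Peaks of 3 CUT&RUN libraries overlapped it, the 2 adult Otx2 libraries included, so it was not free of earlier peaks. The other 4 are chr7:140206757-140207803, chr17:28516272-28517998, chr2:37635460-37636579 and chr5:73033748-73035716. An earlier BCOR region was found at 1 of these 6, and an Otx2 region at P0 at 5. Over all 4984 Otx2 regions without a BCOR peak, BCOR lay at 15.4% at E14 and 7.34% at P0, and Otx2 at 55.6% at P0.

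Within regions that held both factors, the summits of the 2 proteins mostly lay within 100 bases of each other. The share of pairs was 80.3% for summits averaged over the libraries of a factor and 73.5 to 78.3% library by library. Over 741 pairs of overlapping regions, the distance between the BCOR summit and the Otx2 summit, each averaged over the libraries of the factor, had a median of 37 bases (quartiles 14.5 and 80.5). In the same regions the summits of the 2 BCOR libraries lay a median of 39 bases apart (15 to 80), and those of the 2 Otx2 libraries 28 bases (9 to 62). Averaging shortens the distance between factors, so the distances between single libraries are the ones to set beside these. Taken library by library, the 4 BCOR to Otx2 medians were 45, 38, 49 and 40 bases, all above that of the Otx2 libraries and 3 of them above that of the BCOR libraries. Distances over 200 bases were more frequent between factors. Library by library, 89.9 to 90.3% of the pairs lay within 200 bases (91.2% with averaged summits), against 95.8% for the BCOR libraries and 95.3% for the Otx2 libraries. The gap was narrower in the 685 pairs with 1 peak per library. There 93.9% lay within 200 bases with averaged summits, against 96.1% for the BCOR libraries and 94.9% for the Otx2 libraries. In the 218 BCOR alone regions with a peak of Otx2 replicate 2, the summits of BCOR and that peak were a median of 49 bases apart, against 36 bases in the regions with both.

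**Figure D2:**
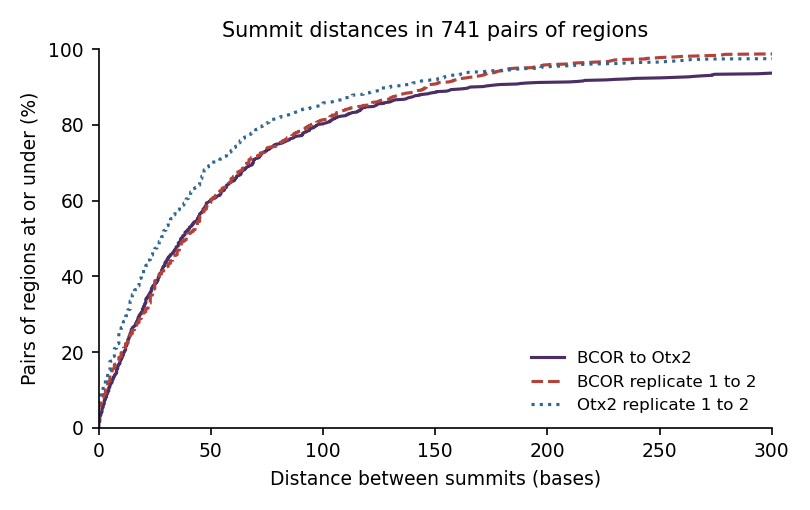
Cumulative share of 741 pairs of overlapping adult BCOR and Otx2 regions, in percent, by the distance between summits in bases. The curve for BCOR to Otx2 (solid, median 37 bases, from summits averaged over the libraries of a factor) runs with that for the 2 BCOR libraries (dashed, median 39) up to about 100 bases, and the curve for the 2 Otx2 libraries (dotted, median 28) lies above both there.

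The BCOR stretch was usually nested in the Otx2 stretch. The BCOR region lay wholly inside the Otx2 region in 575 of the 741 pairs (77.6%), the reverse held in 45 (6.07%), and BCOR covered a median of 60.4% of the Otx2 region. The Otx2 region was the wider one in 652 of the pairs (88.0%), so the nesting is not separate from the width of the called peaks. BCOR regions with Otx2 had a median width of 438 bases (95% interval of the median 424 to 451), against 405 bases (390 to 424) for BCOR alone. Otx2 regions with BCOR were 745.5 bases wide (717 to 765), against 593 bases (585 to 601) for Otx2 alone. With lists of equal length the widths were nearly equal, with medians of 968 and 965 bases on the Otx2 side and 452 and 445 bases on the BCOR side. The widest BCOR region with Otx2, chr1:24618439-24622973, spanned 4535 bases at modest height, with a BCOR fold of 2.62 and 5.09 and an Otx2 fold of 6.32 and 10.7. The widest Otx2 region with BCOR, chr17:39979951-39985746, spanned 5796 bases, with a BCOR fold of 1.83 and 2.57 and an Otx2 fold of 4.20 and 7.67. Its BCOR peaks ranked near the bottom of their lists, at 1.98 and 0.92, although peaks of all 10 CUT&RUN libraries overlapped it. Whether either of these widest stretches reflects binding or an artefact was not tested.

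Most regions of one factor alone lay more than 10000 bases from a region of the other. The nearest Otx2 region lay a median of 71780 bases from a BCOR alone region, and 29 of 301 (9.63%) had one within 10000 bases. The nearest BCOR region lay a median of 454146 bases from an Otx2 alone region, and 230 of 5863 (3.92%) had one within 10000 bases. Within 100000 bases the shares were 59.5% for BCOR alone and 20.6% for Otx2 alone. Another region of the same factor lay within 10000 bases of 8.97% of BCOR alone and 27.9% of Otx2 alone regions. The BCOR list is the sparser one, so the 2 medians are not set against each other. The shares that randomly placed regions would give were not computed, so these distances do not show whether the factors lay apart.

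The height of BCOR did not separate regions with Otx2 from those without. The median BCOR fold was 5.26 and 6.97 in replicates 1 and 2 at BCOR regions with Otx2, and 5.47 and 6.93 at BCOR alone. On the log2 scale the difference of the medians was -0.06 and 0.01, with a mean of -0.02 ± 0.04 (SD, n = 2 libraries), which is smaller than its spread. When BCOR regions were divided into 5 equal groups by BCOR fold in replicate 1, 74.9% of the lowest group and 67.1% of the highest held Otx2. The quartiles of the classes overlapped almost fully in both libraries. Where regions were built from BCOR replicate 2 alone, the difference was 0.24.

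The height of Otx2 did differ, mainly in one library. Otx2 regions with BCOR had a median Otx2 fold of 8.25 in replicate 1 and 26.0 in replicate 2, against 7.75 and 16.1 at Otx2 alone. The log2 difference of the medians was 0.09 and 0.69, with a mean of 0.39 ± 0.43 (SD, n = 2 libraries). Its sign was the same in both libraries, but the mean did not exceed the spread between them. With lists of equal length the mean difference was -0.19, and it was above 0 under each of the other alternatives tried, at 0.14 to 1.23.

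**Figure D3:**
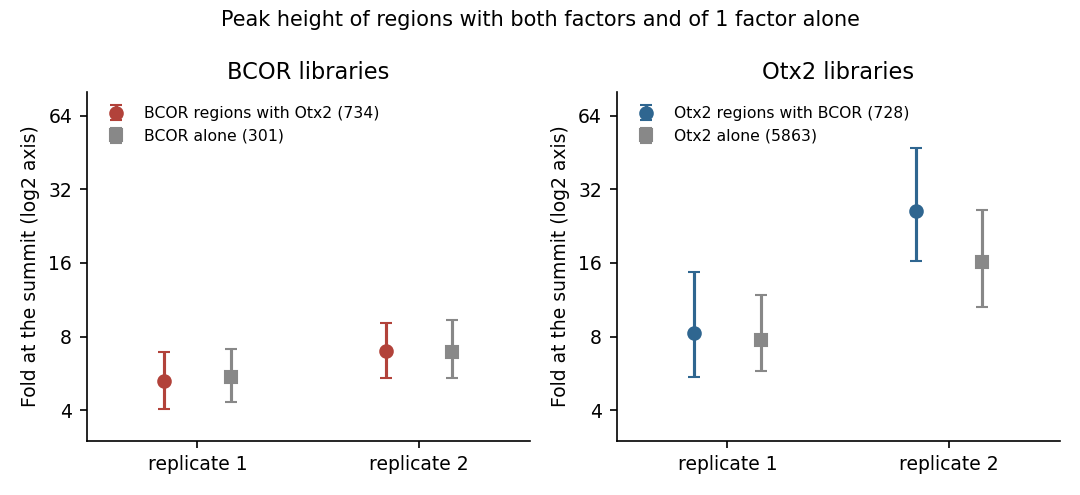
Median fold over background at the summit, as the authors gave it (log2 axis), in each adult library, with bars for the quartiles over regions and the number of regions in brackets. BCOR medians of the classes nearly coincide (5.26 against 5.47 and 6.97 against 6.93), and the Otx2 replicate 2 median is higher with BCOR (26.0) than at Otx2 alone (16.1).

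Medians hid a concentration of BCOR at the very tallest Otx2 regions. When the 6591 Otx2 regions were divided into 10 equal groups (deciles) by the fold of Otx2 replicate 2, BCOR was found in 5.15% of the lowest decile (3.71 to 7.11%) and in 28.2% of the highest (24.9 to 31.8%). By the fold of replicate 1 the share was 16.4% in the lowest decile (13.7 to 19.4%), between 6.07 and 10.9% in the middle ones and 20.3% in the highest (17.4 to 23.6%). The 2 libraries thus gave the highest share to the same end of the scale and ranked the low end differently.

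In the highest decile, many of the BCOR regions lay where no BCOR region had been found earlier in development. Such places made up 75 of the 134 Otx2 regions with BCOR in the highest decile by replicate 1, and 74 of 186 by replicate 2. This split was chosen after the values had been seen. Of the 734 BCOR regions with Otx2, 98 (13.4%) overlapped no BCOR region at P0 or E14, and 79 of them overlapped no peak of any of the 3 earlier BCOR libraries. Their median Otx2 fold was 38.5 and 93.0 in replicates 1 and 2, against 7.49 and 24.3 in the 636 with an earlier BCOR region. In the Otx2 lists these medians ranked 98.2 and 99.0 of 100, against 51.5 and 85.8. Of the 98 regions, 82 (83.7%) and 88 (89.8%) had an Otx2 peak in the top decile of the Otx2 replicate 1 and replicate 2 lists. Of the 636, 61 (9.59%) and 235 (36.9%) had one. These are BCOR regions set against deciles of all peaks in a list, whereas the 75 and 74 above are Otx2 regions in deciles of the Otx2 regions.

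BCOR itself was not taller there to the same degree. The median BCOR fold was 6.37 and 6.83 at the 98 places and 5.10 and 6.97 at the 636, so it was higher in replicate 1 and slightly lower in replicate 2. The median distance between BCOR and Otx2 summits was 36 bases at the 98 places and 36.5 bases at the others. By deciles, Otx2 regions whose BCOR had no earlier region made up 11.4% and 11.2% of the highest decile by replicates 1 and 2 and at most 0.91% of any other decile. By replicate 1, Otx2 regions whose BCOR had an earlier region were no more frequent in the highest decile (8.95%) than in the lowest (16.4%). By replicate 2 they were, with 17.0% and 5.15%.

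Counted the other way, 101 adult BCOR regions had no earlier BCOR region, and 98 of them (97.0%) held Otx2, against 636 of 934 (68.1%) of those with one. The contrast was wider at the top of the Otx2 lists. With each Otx2 list cut to 500 peaks, 74 of the 101 (73.3%) and 97 of the 934 (10.4%) held an Otx2 region. The mean log2 difference in Otx2 fold between the 98 and the 636 regions was 2.15, and it lay between 1.36 and 2.35 under all alternatives, including those that left out 1 library. Requiring a q-value of at most 0.01 in all adult lists gave 2.12. The share of BCOR regions with Otx2 that lacked an earlier BCOR region was less stable, at 27.4% with BCOR replicate 2 alone and 17.2% with BCOR replicate 1 alone.

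**Figure D4:**
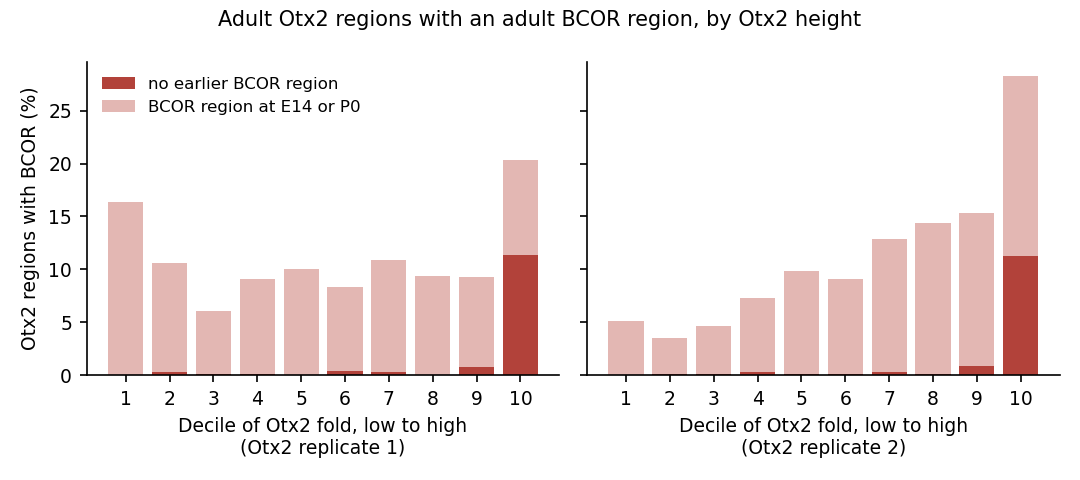
Share of adult Otx2 regions with an adult BCOR region, in percent, by decile of the Otx2 fold in replicate 1 (left) and replicate 2 (right). Dark bars are regions whose BCOR had no region at E14 or P0 and light bars those whose BCOR had one. The dark part is 11.4% and 11.2% in the highest decile and at most 0.91% elsewhere.

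The classes also had different pasts in the lists of E14 and P0. Each comparison here is between classes on the same earlier list, because the earlier lists differ in length. BCOR was present early at most adult BCOR regions, with or without Otx2. At E14 an earlier BCOR region was found at 85.0% of BCOR regions with Otx2 (82.2 to 87.4%) and at 98.7% of BCOR alone (96.6 to 99.5%), and at P0 at 76.3% (73.1 to 79.2%) and 86.4% (82.0 to 89.8%). These differences turned round when a peak of a single library made a region, with BCOR regions with Otx2 higher by 13.7 percentage points at E14 and 16.1 at P0. At P0 the difference was also near 0 without Otx2 replicate 1 (0.99 percentage points). Only 3 of the 301 BCOR alone regions lacked a BCOR region at both earlier stages.

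Otx2 had been present at many places that were BCOR alone in the adult. At E14 an Otx2 region lay at 87.3% of BCOR regions with Otx2 and at 76.7% of BCOR alone. At P0 the shares were 94.3% (92.4 to 95.7%) and 58.8% (53.2 to 64.2%). Of the BCOR alone regions with an earlier Otx2 region, 193 of 231 at E14 and 164 of 177 at P0 had that single adult peak. The 80 BCOR regions with no adult Otx2 peak stood further apart, with an Otx2 region at 47.5% of them at E14 (36.9 to 58.3%) and at 16.3% at P0 (9.75 to 25.8%). Of these 80, 54 had BCOR without Otx2 at P0. With lists of equal length the difference between the classes in Otx2 at E14 was -5.21 percentage points in place of 10.6, whereas that at P0 kept its direction at 10.9.

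Rank in the P0 lists differed in opposite ways for the 2 factors. Where BCOR peaks were present at P0, they ranked at a median of 68.4 and 80.6 of 100 in replicates 1 and 2 under BCOR regions with Otx2, and at 85.7 and 90.0 under BCOR alone. Otx2 peaks at P0 ranked at 84.6 and 84.0 under BCOR regions with Otx2 and at 48.0 and 45.2 under BCOR alone. In both P0 libraries of each factor the order was the same. The BCOR order did not hold in the single E14 list, where BCOR peaks ranked at 87.1 with Otx2 and 83.0 at BCOR alone. Otx2 peaks at E14 ranked at 83.0 and 57.4, in the same order as at P0.

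Otx2 alone regions had the least earlier BCOR. An earlier BCOR region was found at E14 under 86.5% of Otx2 regions with BCOR and 22.2% of Otx2 alone, and at P0 under 77.6% and 13.0%. An earlier Otx2 region was found at E14 under 89.3% and 28.7%, and at P0 under 94.4% and 59.9%. No region of either factor at either earlier stage lay under 2.75% of Otx2 regions with BCOR, and under 38.6% of Otx2 alone (2266 of 5863). The 4 differences by factor and stage kept their direction under all alternatives tried. At the other extreme, 519 of the 734 BCOR regions with Otx2 (70.7%) overlapped a peak of every one of the 10 libraries.

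Earlier Otx2 lay at a smaller share of the 98 regions with both factors but no earlier BCOR. Otx2 was present at P0 in 76.5% of them (67.2 to 83.8%), against 97.0% (95.4 to 98.1%) of the 636 with an earlier BCOR region. At E14 it was present in 35.7% (26.9 to 45.6%), against 95.3% (93.3 to 96.7%).

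**Figure D5:**
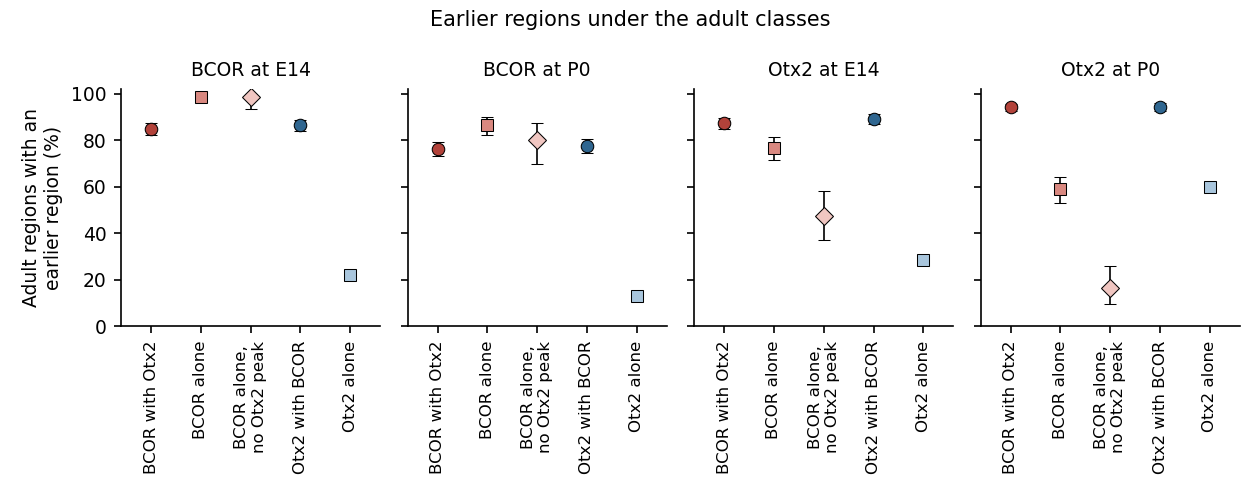
Share of adult regions of each class, in percent with 95% Wilson intervals, that overlapped a BCOR or Otx2 region at E14 and P0. Otx2 at P0 lies under 94.3% of BCOR regions with Otx2, 58.8% of BCOR alone and 16.3% of BCOR alone without any adult Otx2 peak, and BCOR at P0 lies under 13.0% of Otx2 alone.

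A small set of stretches combined peaks in many libraries with almost no enrichment. A fold under 2 in a BCOR library was found for 14 of the 734 BCOR regions with Otx2 and 3 of the 301 BCOR alone regions, and 10 of the 14 lay on chromosome 9. An example is chr9:3000121-3003706, with 4 BCOR peaks, a BCOR fold of 1.68 and 2.14, an Otx2 fold of 1.49 and 1.69 and peaks in all 10 libraries. Their part in the shares was small. With such regions of both factors left out, 70.2% of BCOR regions held Otx2 and 10.7% of Otx2 regions held BCOR. Over the chromosomes, the share of BCOR regions with Otx2 lay between 54.5% on chromosome 18 (34.7 to 73.1%, 22 regions) and 84.4% on chromosome 7 (74.7 to 90.9%, 77 regions).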

How the data were processed

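CUT&RUN was run on adult CD1 mouse retina with antibodies to BCOR and Otx2, 2 libraries each. The authors deposited 1 peak list per library, and MACS2 is among the tools in the submitters' processing notes, which give no versions. For each peak the deposited lists held a score, the fold of the signal over its background (a ratio, taken at the summit), −log10 of the p-value and of the q-value, and the summit's offset. The score was not used beyond a check of the columns. The sources used here do not give the control and the threshold of peak calling. Chromosome names are those of mm9, which the notes name beside mm10, and coordinates follow it, 1-based. Neither a genome nor an annotation of that build was used, so genes, promoters, motifs and sequences were not analysed here.

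Peaks off chromosomes 1 to 19 (2.19 to 4.56% of each adult list) were left out. Regions and overlaps (at least 1 base) were computed in Python 3.11.15 with numpy 2.4.6 and pandas 2.3.3, and the code was tested on simulated data against bedtools. The height of a region in a library is its tallest peak's fold, used to describe and rank within that library's list. Where a library had several peaks in a region, the nearest summits were taken for distances. Intervals of shares are 95% Wilson intervals (scipy 1.17.1), intervals of a median width come from binomial order statistics, and both cover counting error only. Named regions are the 8 with both factors whose lowest within-list rank over the 4 libraries was highest, the 6 of each factor without a peak of the other ranked likewise, and the widest or most fragmented, leaving out chromosome 18. The classes, lists and rules were chosen with earlier results of these data known. Labels name replicates 1 and 2 for both factors but do not say that equal numbers share an animal or day. Alternatives changed the overlap rule, q-value, list length, joining of peaks, chromosome X and each library in turn.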

Additional observations from a re-analysis of the deposited data

How the results depend on the processing

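Of the 277 values recomputed for 19 results under 21 alternatives, 186 stayed within the interval or spread of the reported value and 91 moved beyond it. The overlap rule based on summits within 200 bases or on the shorter region, joining peaks, chromosome X and leaving out regions of fold under 2 moved no result. Other choices of summit gave a median distance of 37.5 to 49 bases in place of 37. They were counted as not moved, but the limit was a change of 39 bases, which no shorter distance could have passed. Depth is unknown, 2 libraries per factor allow no test, and the cause of each shift below was not tested beyond what each alternative changes by construction.

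With lists of equal length, the share of BCOR regions with Otx2 was 31.3% and of Otx2 regions with BCOR 24.3%. The log2 fold difference, with the other factor minus alone, was 0.044 for BCOR and -0.19 for Otx2. Median widths were 452 and 445 bases for BCOR with Otx2 and alone, and 968 and 965 bases for Otx2 with BCOR and alone. The difference with minus alone in earlier BCOR at P0 and E14 was -21.4 and -21.8 percentage points for BCOR and 57.5 and 59.3 for Otx2. In earlier Otx2 at P0 and E14 it was 10.9 and -5.21 for BCOR, and 14.6 and 46.2 for Otx2. The log2 Otx2 fold difference of BCOR regions without minus with an earlier BCOR region was 1.44, and 22.5% were without one. With regions made from a peak of either library, these values were, in the same order, 84.8% and 15.2%, 0.16 for the BCOR fold, 320 and 264 bases, 595 and 404 bases, 16.1 and 13.7, 55.5 and 58.5, 65.1 and 40.5, 42.8 and 56.0 percentage points, 1.59, and 21.7%.

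When a single peak of the other factor counted as both, the shares were 92.3% and 24.4%, the BCOR fold difference 0.047, the alone widths 428.5 bases for BCOR and 577 bases for Otx2, and regions without earlier BCOR 10.5%. The stage differences were then -0.84 (BCOR at P0), 73.4 and 39.8 (Otx2 at P0 and E14) for BCOR regions, and 52.6, 57.1 and 53.9 (BCOR at P0 and E14, Otx2 at E14) for Otx2 regions. At a q-value of at most 1e-05, the BCOR fold difference was -0.093, widths were 478 and 467.5 bases for BCOR with Otx2 and alone and 640 bases for Otx2 alone, 8.21% of Otx2 regions had BCOR, the Otx2 P0 difference of Otx2 regions was 31.1, and 11.0% lacked earlier BCOR. At 0.01, 10.2% of Otx2 regions had BCOR. Counting peaks of any earlier BCOR library gave 10.8% without earlier BCOR.

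Leaving out each library in turn gave 60.0 to 92.0% of BCOR regions with Otx2 (60.0% without BCOR replicate 1, 92.0% without Otx2 replicate 1) and 6.48 to 21.9% of Otx2 regions with BCOR (6.48% without Otx2 replicate 1, 21.9% without BCOR replicate 1). The fold differences were -0.028 to 0.24 for BCOR and 0.14 to 1.23 for Otx2. Widths were 302 to 438 and 265 to 418 bases for BCOR with Otx2 and alone, and 478.5 to 737.5 and 366 to 590 bases for Otx2 with BCOR and alone. Stage differences of BCOR regions were -10.8 to 0.99 and -14.1 to -9.36 for BCOR at P0 and E14, and 35.0 to 72.9 and 10.4 to 39.2 for Otx2. For Otx2 regions they were 52.5 to 66.7 and 56.2 to 65.7 for BCOR, and 32.0 to 44.1 and 52.2 to 63.8 for Otx2. The Otx2 fold difference by earlier BCOR was 1.36 to 2.35, with 10.4 to 27.4% of regions without earlier BCOR.

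The replicate block, which asks that same-numbered BCOR and Otx2 peaks overlap for both numbers, gave 70.8% and 11.1% and moved no result. The planned comparisons with promoters and motifs were not run, since no mm9 reference was used.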
